A study of Mus musculus with 20 samples.

Results

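Regulatory chromatin of the fasted liver without Ppara was described from 4 libraries of chromatin immunoprecipitation with sequencing (ChIP-seq), the Ppara knockout (Ppara KO) libraries of H3K27ac and H3K4me1, 2 livers for each mark. They belong to a series of 20 samples, of which 16 had peak lists of these marks. A region was counted when peaks of both livers overlapped by at least 1 base. The lists held 46543 and 44454 H3K27ac peaks and 69790 and 61189 H3K4me1 peaks, and the read depth behind them is not known from these files. This gave 32158 H3K27ac regions and 36200 H3K4me1 regions in Ppara KO, against 65776 H3K27ac and 103014 H3K4me1 intervals in the authors' consensus sets for the whole series. Regions of a mark that overlapped a region of the other mark by at least 1 base formed the class with both marks, and the rest were H3K27ac only or H3K4me1 only.

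All mice were 9-week-old C57BL/6 males fasted for 24 h, and whole flash-frozen liver was used. The Ppara deletion was in the whole body, per the description of the double knockout, so cells other than hepatocytes lacked Ppara too. They were set beside wild type (WT), a liver knockout of Cpt2 (Cpt2 KO) and the double knockout of both genes (DKO), each with 2 livers per mark. The names inside the peak lists give the same animal number to the H3K27ac and H3K4me1 libraries of a Ppara KO liver, so the 2 marks come from the same 2 animals, called liver 1 and liver 2 here. Cell types were not separated, so fewer cells of a type and less of a mark per cell cannot be told apart.

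Monomethylation of lysine 4 of histone H3 marks enhancers and the flanks of promoters, and acetylation of lysine 27 marks enhancers and promoters that are active. Enhancers with H3K4me1 and no H3K27ac are often called poised or primed, and promoters of the CpG-rich kind usually lack H3K4me1 at the start itself, where trimethylation takes its place. PPARA is a nuclear receptor that binds fatty acids, pairs with RXR, recognises direct repeats of a half-site spaced by 1 base, and is known in liver for turning on fatty acid oxidation and ketone body synthesis during a fast.

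The sequences below are hand-picked examples of promoters with H3K27ac only and with both marks. They are 2 of genes ranked among the strongest in acetylation and 2 of known PPARA targets. Each is the 250 bases before a start in RefSeq (GRCm38.p6, the assembly of mm10), 5′ to 3′ on the gene's strand. Capitals mark every match, on either strand, to GGGCGG (an SP/KLF site), CCGGAAG (an ETS site), TATAAA (a core promoter element), AGGTCA (a nuclear receptor half-site) or AGGNCANAGGNCA (2 half-sites spaced by 1 base, which can overlap AGGTCA). One of 4 annotated starts of Ube2d3 lies at chr3:135438230-135438479 on the plus strand and its window carried H3K27ac only, as did that of Slc25a20 at chr9:108661886-108662135 on the plus strand. Pnrc1 lies at chr4:33248788-33249037 on the minus strand and its window carried both marks, as did that of Fabp1 at chr6:71199629-71199878 on the plus strand.
Ube2d3: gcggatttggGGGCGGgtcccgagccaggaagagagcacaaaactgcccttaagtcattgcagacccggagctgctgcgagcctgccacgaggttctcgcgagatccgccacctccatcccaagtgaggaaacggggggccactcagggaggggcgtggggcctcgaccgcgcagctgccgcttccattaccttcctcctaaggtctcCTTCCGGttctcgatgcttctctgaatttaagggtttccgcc
Pnrc1: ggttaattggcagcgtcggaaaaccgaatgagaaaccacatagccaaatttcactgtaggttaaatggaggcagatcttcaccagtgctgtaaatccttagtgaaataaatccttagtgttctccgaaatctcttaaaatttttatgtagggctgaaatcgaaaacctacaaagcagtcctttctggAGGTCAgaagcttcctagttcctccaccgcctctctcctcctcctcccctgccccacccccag
Slc25a20: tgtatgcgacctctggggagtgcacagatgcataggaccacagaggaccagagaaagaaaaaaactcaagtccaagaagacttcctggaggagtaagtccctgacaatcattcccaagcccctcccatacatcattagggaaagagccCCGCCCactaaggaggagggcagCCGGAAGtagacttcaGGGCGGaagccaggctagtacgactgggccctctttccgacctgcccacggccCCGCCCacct
Fabp1: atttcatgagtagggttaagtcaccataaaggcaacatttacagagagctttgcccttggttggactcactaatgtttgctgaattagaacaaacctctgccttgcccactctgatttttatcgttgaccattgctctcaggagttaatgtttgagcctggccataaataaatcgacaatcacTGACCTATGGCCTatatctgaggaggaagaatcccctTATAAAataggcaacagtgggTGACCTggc

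Ube2d3 had a GGGCGG match that began 240 bases before the start and an ETS match 42 bases before it. Slc25a20, the carnitine-acylcarnitine carrier of mitochondria, had 3 GGGCGG matches and an ETS match 79 bases before the start. Pnrc1 held a single AGGTCA, 63 bases before the start. Fabp1, the fatty acid binding protein of hepatocytes, had a TATAAA that began 30 bases before the start and a match to the spaced pair of half-sites, TGACCTATGGCCT, that began 67 bases before it. A match is a description of the letters and not evidence of binding.

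The classes differed over all promoters with a listed start, as a description. Windows from 250 bases before to 50 after each of 21263 starts of 17492 protein-coding genes were placed in a class by the Ppara KO regions they overlapped. The listed starts lay on 20 chromosomes, so genes elsewhere are not covered here or in other values at starts. H3K27ac alone lay over 7075 windows (33.3%), both marks over 1081 (5.08%), H3K4me1 alone over 435 (2.05%) and neither over 12672 (59.6%). Acetylated windows without H3K4me1 were the most CpG-rich: the ratio of observed to expected CpG was above 0.6 in 80.3% of them, against 40.8% of windows with both marks, 30.1% of windows with neither and 47.6% of all. Of the printed H3K27ac-only examples, Ube2d3 had a ratio of 0.73 and Slc25a20 0.52, below that cut. Those with both marks had 0.47 (Pnrc1) and 0.20 (Fabp1).

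The letters before the start differed in the same way. CCGGAAG was found in 17.3% of windows with H3K27ac alone and in 6.11% of those with both marks, against 8.98% of all windows. GGGCGG was found in 62.3% and 45.8%, against 42.6% of all. The half-site AGGTCA went the other way, at 9.91% and 20.4%, against 12.8% of all, and TATAAA stood at 5.67% and 8.14%, against 11.6% of all. The spaced pair AGGNCANAGGNCA was rare, in 11 of 7075 windows with H3K27ac alone (0.155%), in 11 of 1081 with both marks (1.02%) and in 68 of all 21263 (0.32%).

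Acetylation and methylation were arranged differently around gene starts. H3K27ac peaks covered 29.0% of starts in liver 1 and 30.9% in liver 2, and were most frequent 200 bases into the gene, at 35.97% and 37.8%. H3K4me1 peaks covered only 3.67% and 2.93% of starts. H3K4me1 was most frequent beside the start, at 16.7% of starts 1200 bases into the gene in liver 1 and at 10.9% 500 bases upstream in liver 2.

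At the 6743 starts inside an H3K27ac region the dip was deeper in proportion. H3K4me1 covered 5.69% and 5.28% of these starts themselves, against 36.1% of them 1600 bases downstream in liver 1 and 24.8% of them 600 bases upstream in liver 2. The 2 livers shared the dip and not the side or distance of the flank that was highest. Their H3K4me1 lists also differed in covered length (53.3 and 42.7 Mb) and shortest peak (200 and 216 bases), and the part of these measures in the flank was not tested.

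**Figure D1:**
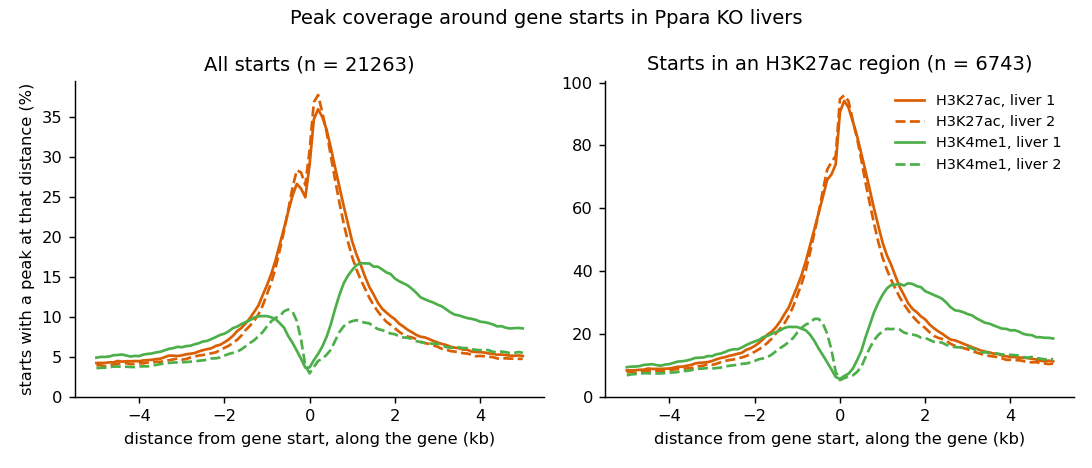
Share of gene starts with a peak (vertical axis, percent) at each distance along the gene (horizontal axis, kb, steps of 100 bases), for all 21263 starts and for the 6743 starts in an H3K27ac region. Solid lines are liver 1 and dashed lines liver 2. H3K27ac is highest just inside the gene, and H3K4me1 drops to 3.67% and 2.93% at the start itself over all 21263 starts.

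Starts were acetylated less often in Ppara KO than in the other genotypes, a difference noticed after the values were seen and not tested. H3K27ac peaks covered 32.9% and 38.3% of starts in the WT livers, 33.2% and 34.2% in the Cpt2 KO livers, and 32.2% and 36.2% with both deletions. Both Ppara KO livers lay below all 6. H3K4me1 at starts overlapped between genotypes, from 2.93% to 5.26% over the 8 livers.

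The class with both marks held 18921 of the H3K27ac regions (58.8%) and 21197 of the H3K4me1 regions (58.6%), which joined into 16646 separate loci. The remaining 13237 H3K27ac regions and 15003 H3K4me1 regions carried 1 mark. Counted within each liver, 62.5% of H3K27ac peaks in liver 1 and 63.9% in liver 2 overlapped an H3K4me1 peak. For H3K4me1 the shares were 45.8% and 54.5%, a wider gap between livers.

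Regions with both marks were broad. H3K27ac regions with both marks had a median width of 1300 bases, against 700 for H3K27ac only, and 1874 of them (9.90%) reached 4000 bases, against 51 (0.385%). Both-mark H3K4me1 regions had a median of 1155 bases against 699. Regions with both marks made up 75.2% of the bases covered by H3K27ac. In single livers, where peaks are not merged, the medians were 703 and 727 bases for H3K27ac peaks with both marks and 424 and 408 for H3K27ac only, so the order held in each liver.

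Width and place combined in the share of H3K27ac regions that carried H3K4me1. Among regions under 500 bases, 13.8% of those within 1000 bases of a gene end and 45.3% of those farther away carried both marks. Between 1000 and 2000 bases the shares were 40.8% and 72.8%. At 4000 bases or more they were 95.3% and 97.7%. A wide region has more bases in which to meet the other mark, so width and class are not independent by definition.

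**Figure D2:**
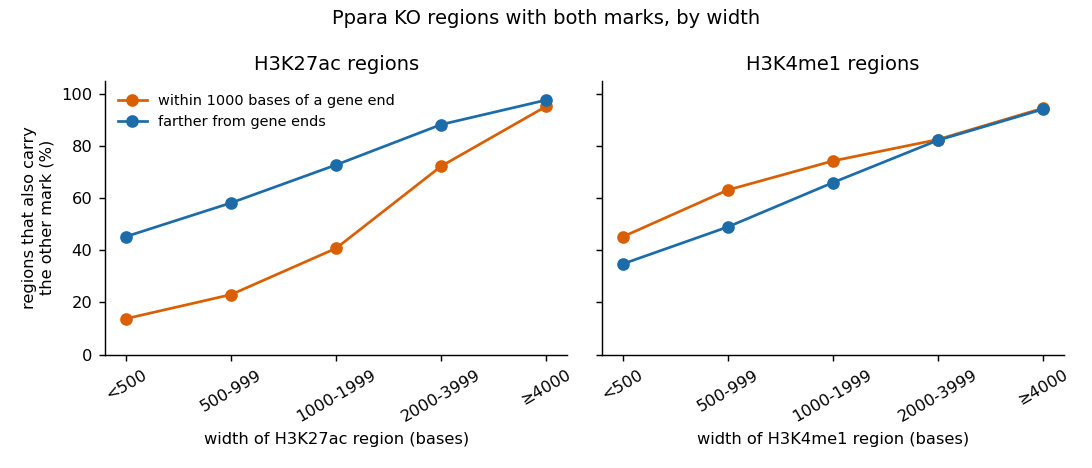
Percent of Ppara KO regions that also carry the other mark (vertical axis) by region width in bases (horizontal axis), for regions within 1000 bases of a gene end and for those farther away. In H3K27ac, regions near an end stay below the others in each width class, from 13.8% against 45.3% under 500 bases. In H3K4me1 regions near an end lie above the others in each width class, from 45.2% against 34.8% under 500 bases.

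The H3K27ac-only class was the one nearest to gene ends. Its members lay a median of 2418 bases from the nearest gene end, and 5353 of them (40.4%) lay within 1000 bases. H3K27ac regions with both marks lay a median of 9364 bases away, and 3039 (16.1%) were near an end. Within single livers the shares were 33.9% and 37.5% for H3K27ac only, and 14.5% and 14.8% for both marks, so the classes did not overlap between livers. A start of a protein-coding gene lay inside 23.4% of H3K27ac-only regions and 13.3% of those with both marks. These shares are over 12802 and 18376 regions, those on the 20 chromosomes with listed starts.

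H3K4me1 regions sat away from gene ends whether or not they were acetylated, and mostly inside gene bodies. Of the H3K4me1-only regions 9.09% lay near an end, and of those with both marks 11.03%. Their median distances were 11851 and 9147 bases. A start lay inside 1.52% and 2.01% of those on chromosomes with listed starts (14538 and 20562 regions). The middle of an H3K4me1-only region was in a gene body in 73.4% of cases, against 64.8% with both marks and 66.9% of H3K27ac-only regions.

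Stronger regions more often carried the other mark, and the relation was steeper for methylation. Regions were ranked within each liver's list by the authors' fold enrichment over input, where percentile 100 is the strongest peak. H3K27ac regions with both marks had median percentiles of 66.1 and 65.6 in the 2 livers, and H3K27ac-only regions 58.9 and 55.8. H3K4me1 regions with both marks had 71.9 and 72.3, and H3K4me1-only regions 55.7 and 49.3.

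With the regions of a mark put in 10 equal classes of strength, 56.5% of the weakest and 71.7% of the strongest H3K27ac class had both marks, with the lowest share, 52.3%, in class 5. In H3K4me1 the share was 42.1% in the weakest and 89.3% in the strongest class. Where both marks lay together, their strengths were weakly correlated. Across 18921 regions the Spearman correlation between the percentiles of the 2 marks was 0.16 in liver 1 and 0.27 in liver 2. Between livers the Spearman correlation of the folds was 0.79 over all 32158 H3K27ac regions and 0.41 over all 36200 H3K4me1 regions. How far the lower agreement in H3K4me1 bears on the values between marks was not tested. These values are across regions that share a library and are not independent replicates.

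Summits of the 2 marks lay closer together away from gene ends. In regions with both marks the strongest H3K27ac summit lay a median of 281 bases from the nearest H3K4me1 summit in liver 1. In liver 2 the median was 155. Near gene ends the medians were 643 and 544 bases, and farther away 227 and 117. Liver 2 had the shorter distances in each of these sets.

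A region with 1 mark did not always lack the other. Of the 13237 H3K27ac-only regions, 7820 (59.1%) met no H3K4me1 peak in either liver, 5127 met one in a single liver and 290 met peaks in both that did not join into a region. Of the 15003 H3K4me1-only regions, 11496 (76.6%) met no H3K27ac peak, 3352 met one in a single liver and 155 met peaks in both. H3K9ac, another mark of active chromatin, was measured in 1 WT and 1 Cpt2 KO liver and not in Ppara KO. Its consensus intervals overlapped 61.3% of H3K27ac regions with both marks, 60.5% of H3K27ac-only regions and 30.3% of H3K4me1-only regions.

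Regions other than those with H3K4me1 only were mostly called in every liver of the other genotypes too. H3K27ac was called in all 6 livers of WT, Cpt2 KO and DKO at 64.8% of regions with both marks and at 61.8% of H3K27ac-only regions. For H3K4me1 the shares were 69.3% with both marks and 44.9% for H3K4me1 only. Called in none of those 6 livers were 290 H3K27ac regions (146 with both marks, 144 without) and 158 H3K4me1 regions (43 and 115).

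Built the same way, the class with both marks held 58.8% of H3K27ac regions in Ppara KO, below WT (64.3%) and above DKO (56.9%) and Cpt2 KO (50.9%). For H3K4me1, Ppara KO had the highest share, 58.6%, followed by Cpt2 KO (57.6%), DKO (52.4%) and WT (49.97%). The share of single-library peaks that overlapped the other mark was 63.2% ± 0.986 in the Ppara KO H3K27ac libraries and 50.1% ± 6.20 in the Ppara KO H3K4me1 libraries (mean ± SD, n = 2). The other 6 libraries ranged from 55.7% to 67.5% and from 40.5% to 51.8%.

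No library measure passed a test of Ppara KO against the other genotypes. The difference in overlap was 2.12 percentage points for H3K27ac and 2.37 for H3K4me1 (exact permutation test, two-sided, 28 splits, p = 0.607 for each). The lowest p of the 6 measures was 0.107, for the share of H3K27ac peaks near a gene end, which was 21.8% and 23.0% in Ppara KO and 21.9% to 23.5% in the others. All 6 had an adjusted p of 0.643 (Benjamini-Hochberg over 6 exact permutation tests), and the smallest p that 2 against 6 libraries allow is 0.0357. A single measure at that p would not pass after adjustment over 6 tests, so the lack of a call says little.

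The genes ranked strongest in acetylation carried mostly both marks. Each region was given to the gene whose body held its middle, or to the nearest body within 5000 bases, and 9802 of 21887 protein-coding genes had an H3K27ac region in Ppara KO. The 25 genes with the strongest single region are described here without a test, since this value chose them. In 20 of them that region carried both marks, and in 5 (Hexim2, Fam126b, Prkce, Ube2d3 and Ubtf) H3K27ac only. Over all genes with a region, the strongest carried both marks in 47.7%. In the strongest of the 10 classes of H3K27ac regions above, 71.7% carried both marks, so a high share goes with strength in general.

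Atg12, which encodes a ubiquitin-like protein needed to form autophagosomes, had the strongest peak of both lists. Its region, 128 bases from an end of the gene body, had folds of 46.0 in liver 1 and 51.5 in liver 2. Hexim2, an inhibitor of the transcription elongation factor P-TEFb, followed with 40.5 and 40.8 at chr11:103131711-103133057, with no H3K4me1 region there. Mtmr11, a myotubularin-related gene, had 39.0 and 43.3 at chr3:96170536-96173330, with both marks.

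Sppl2a, an intramembrane protease, had 39.0 and 40.3. Ube2d3, a ubiquitin-conjugating enzyme, had 33.4 and 36.1 over the promoter printed above and lacked H3K4me1. Fam126b reached 38.8 and 40.0 in a region that also held the start of Ndufb3, a subunit of respiratory complex I, so the acetylation cannot be given to either gene alone.

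Pnrc1, a coregulator of nuclear receptors, had 34.8 and 41.4 at chr4:33246733-33249529. Runx1, Irf2 and Gabpb1, the partner subunit of an ETS factor, had between 31.3 and 37.3. Ubtf, a factor of ribosomal RNA synthesis, had 41.2 in liver 1 and 33.3 in liver 2, the 4th and the 85th strongest peak of those lists.

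Rbp4, the carrier of retinol in blood, had 35.5 and 36.1 at chr19:38124910-38128129. Lpin2, a phosphatidate phosphatase, had 34.5 and 35.9. Lrp1, a receptor that clears lipoprotein remnants, had 35.0 and 38.4. Vegfa, an angiogenic growth factor, had 39.6 and 33.6, and Cflar, an inhibitor of caspase-8, had 34.3 and 34.4.

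Further members were Gm20346, Dsc2, Usp40, Cdiptos, Nat8f1, Prkce, Mtarc1 and Ncoa4, with folds between 33.5 and 39.8. The region of Gm20346 also held the start of Anp32a, and that of Nat8f1 the start of Tprkb. The region of each of the 25 genes was also called in all 6 livers of the other genotypes. Runx1, the 25th, had a mean percentile of 99.88, and Got1, the 26th, 99.86.

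**Figure D3:**
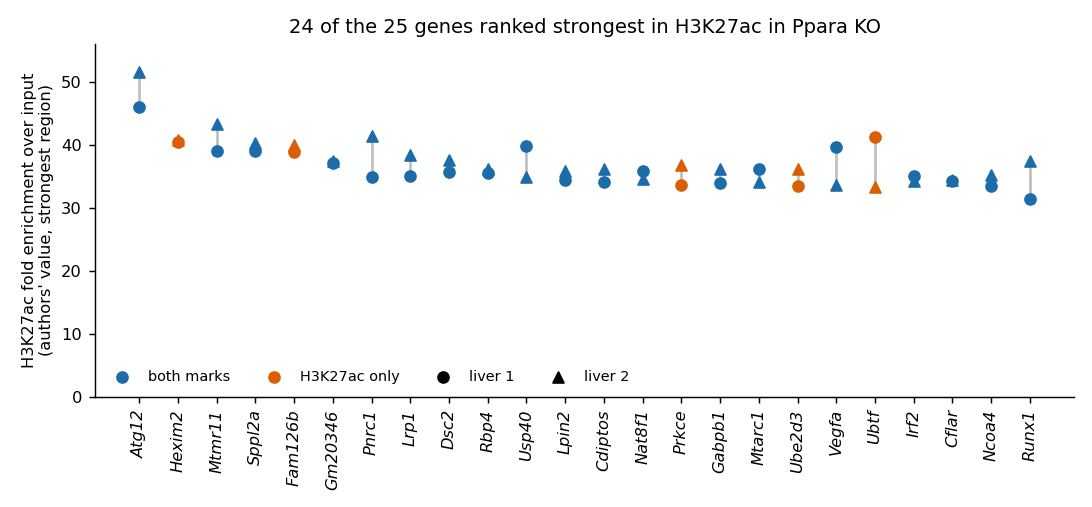
H3K27ac fold enrichment over input, the authors' value (vertical axis, linear), of the strongest region of 24 of the 25 top genes (horizontal axis, in order of mean rank). Circles are liver 1 and triangles liver 2, blue for both marks and orange for H3K27ac only. Atg12 stands above the rest in both livers, at 46.0 and 51.5.

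Methylation did not follow this order. H3K4me1 ranks were not used to choose these genes, although the 2 marks come from the same livers. Of the 25 genes 22 had an H3K4me1 region, against 8309 of all 21887 genes. Ncoa4, a receptor for the autophagy of ferritin, was second of 8309 genes in H3K4me1, with folds of 17.4 and 21.1, and Runx1 was 41st. Pnrc1 was 6568th, with 5.63 and 5.91, and Mtarc1, an enzyme of the outer mitochondrial membrane, was 6636th. Fam126b, Gm20346 and Cdiptos were given no H3K4me1 region by the rule, although the acetylated regions of Gm20346 and Cdiptos overlapped one.

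The order depended on the measure. Ranked by the authors' −log10 q, 6 of the 25 stayed among the first 25. Ranked by bases covered, none did: Mtss1 came first with 31 regions over 101442 bases, of which 30 carried both marks, followed by Rxra, the partner of PPARA, with 80657 bases. Mtss1 also had the strongest H3K4me1 region of all genes, with folds of 18.8 and 20.5. From liver 1 alone or liver 2 alone 15 of the 25 were found again. The strongest H3K4me1-only regions lay at Mical3 (14.0 and 16.2), Fam83f (14.7 and 14.8) and Tle3 (15.7 and 13.0), and these 3 were named after their values were seen.

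The liver label was checked with markers of cell types. Of 6 hepatocyte markers 5 had an H3K27ac region (Hnf4a, Cps1, Ttr, Tat and Alb), and the start of the other, Apoa1, lay in a both-mark region given to its neighbour Sik3, with folds of 18.7 and 19.4. None of 10 genes of other tissues, among them Neurod1, Gfap and Ins2, had an H3K27ac region. For 3 of these 10, among them Nkx2-5 and Olig2, an H3K4me1 region was found.

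Markers of the other liver cells that were acetylated mostly lacked H3K4me1 at their strongest region. Over all genes with a region, the strongest carried both marks in 47.7%. All 8 endothelial markers had an H3K27ac region, with a median percentile of 87.8 against 80.5 for all genes with a region, and in 6 of the 8 the strongest region lacked H3K4me1. Kdr, a receptor of VEGF, had folds of 19.6 and 14.3, and none of its 14 H3K27ac regions met an H3K4me1 region. Clec4g, a lectin of sinusoidal endothelium, had 17.3 and 15.2, and none of its 4 did. Pecam1 (23.5 and 19.0) and the scavenger receptor Stab2 (12.1 and 12.6) were the 2 with both marks.

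Over all genes 44.8% had an H3K27ac region. Kupffer cell markers had one in 3 of 8 cases (C1qa, Clec4f and Csf1r) and stellate cell markers in 2 of 8 (Dcn and Hand2), each H3K27ac only. Their folds lay between 6.50 and 9.30, and Adgre1, Marco, Des and Col1a1 had none. Of 5 cholangiocyte markers Sox9 alone had a region, and of 5 lymphocyte markers Ptprc alone, both H3K27ac only. 

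Hepatocyte transcription factors stood highest of the gene lists. All 15 had an H3K27ac region, with a median percentile of 98.2 against 80.5 for all genes, 11 were in the top 10% of genes, and 12 carried both marks at their strongest region. Nr1i3, the nuclear receptor CAR, had folds of 30.6 and 34.2. Rxra had 31.7 and 31.5 and was 25th of all genes in H3K4me1. Cebpb had 21.4 and 15.7, and Onecut1, the weakest, 5.97 and 7.95.

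Ppara itself remained among the acetylated genes. Its strongest H3K27ac region, near the start of the gene (body at chr15:85734910-85806851), had folds of 20.2 and 28.4 in the Ppara KO livers. The WT livers had 16.2 and 21.1, those of Cpt2 KO 25.3 and 22.9, and the double knockouts 32.3 and 43.9. Ppara KO thus overlapped WT and Cpt2 KO in that region. Intervals inside the gene body were mixed. At chr15:85741614-85744699 the folds were 13.7 to 18.6 in the 4 livers with Ppara and 7.91 to 8.69 in the 4 without. At chr15:85767440-85780875 they were 18.2 to 29.3 and 16.9 to 23.2, with overlap. The interval chr15:85801195-85801691 was called only in the 4 livers without Ppara. These intervals were named after their values were seen, and no test of them is reported. A peak just past the other end, at chr15:85807161-85809538, was called in the 4 livers with Ppara and in none of the 4 without it. It is 1 of many intervals at the locus and was picked for this pattern, so it is no check of the labels.

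Genes of gluconeogenesis and the fasting response had a median percentile of 96.1, with 9 of 9 acetylated. Foxo1, a transcription factor held back by insulin, had 28.5 and 29.1, and Irs2, an insulin receptor substrate, 22.2 and 27.8. Pck1 and G6pc, the gluconeogenic enzymes, had 11.2 and 14.7, and 8.97 and 11.7, in regions without H3K4me1. The list's strongest H3K4me1 regions had a median percentile of 94.6, against 72.3 for all genes with an H3K4me1 region.

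Secreted liver proteins had a median percentile of 91.1 (19 of 20 acetylated), bile acid genes 93.2 (9 of 9), the urea cycle 92.9 (6 of 6), clock genes 91.1 (11 of 12) and housekeeping genes 92.5 (7 of 8). Serpinc1, which encodes antithrombin, led the secreted proteins with 25 and 28.2, and Hp, haptoglobin, was lowest with 7.94 and 11.5. Baat, which conjugates bile acids, had 31.9 and 24.0, while Cyp7a1, the rate-limiting enzyme of bile acid synthesis, had 7.29 and 6.56. Ass1 of the urea cycle had 19.1 and 24.0, and Asl 4.15 and 8.14. Per3 led the clock genes with 27.7 and 34.4 in a region without H3K4me1, and Arntl was lowest with 6.24 and 7.69. Dbp and Tbp had no region of their own, since the regions over their starts were given to Sphk2 and Psmb1.

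Ketone body genes were acetylated in 5 of 5 cases, with a median percentile of 88.2. Bdh1, the dehydrogenase of ketone bodies, had 12.4 and 16.5, and Slc16a1, a carrier that exports them, 7.57 and 13.8. Lipogenic genes had a median of 83.7, with 8 of 10 acetylated. Srebf1 led them with 15.8 and 22.8, and Scd1 and Pnpla3 had no H3K27ac region but had H3K4me1.

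Targets of PPARA in fatty acid oxidation stood lowest of these functional lists. Of 28 genes 23 had an H3K27ac region, with a median percentile of 80.1 against 80.5 for all genes with a region. None was in the top 10%, the first 980 of 9802 genes, but Cpt1a was 983rd and Plin2 995th. In the top 20% were 3 of the targets. In 19 of the 23 (82.6%) the strongest region carried both marks, against 47.7% of all genes with a region. Other liver lists had like shares: bile acid genes 88.9%, lipogenic genes 87.5%, hepatocyte transcription factors 80% and secreted proteins 78.9%. Cpt1a, which moves fatty acids toward mitochondria, had 19.8 and 21.0, and Plin2, a coat protein of lipid droplets, 19.4 and 21.2. Cyp4a10, a fatty acid hydroxylase, was lowest with 6.17 and 5.50, and Slc25a20 followed with 7.14 and 6.29. Cyp4a14, Cyp4a31, Acot1, Vnn1 and Hadhb had no region, although the start of Hadhb lay in a region shared with Hadha (15.8 and 18.3).

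**Figure D4:**
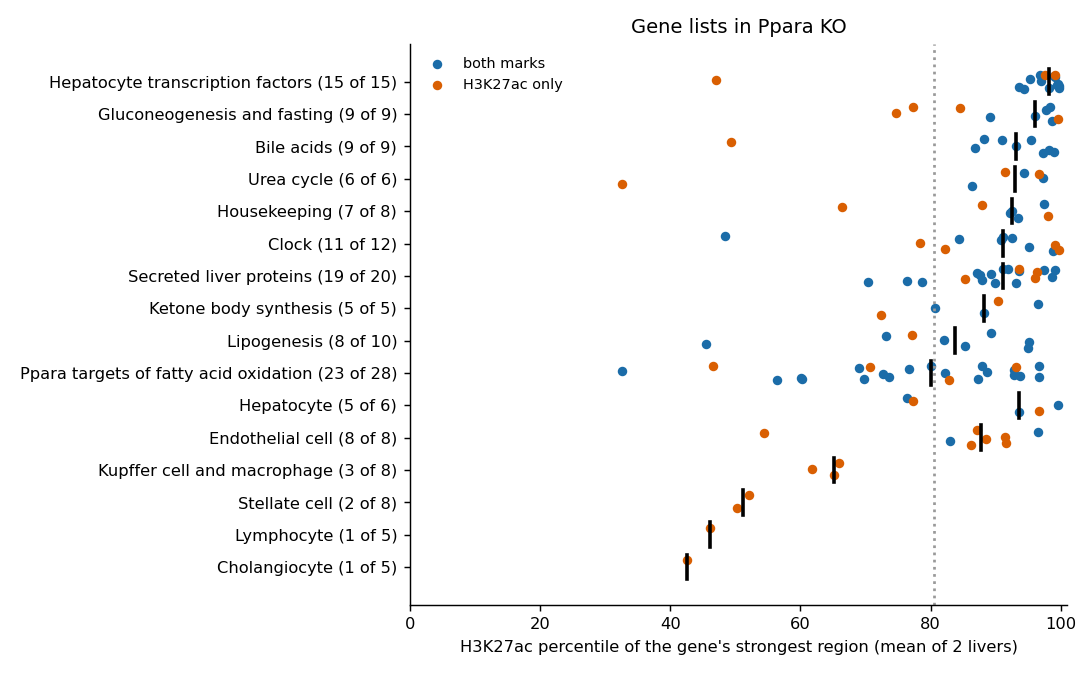
H3K27ac percentile of each gene's strongest region in Ppara KO (horizontal axis, mean of 2 livers), by gene list, with the number of genes that have a region. Blue points carry both marks and orange points H3K27ac only, black bars are list medians, and the dotted line is the median of all genes with a region, 80.5. Hepatocyte transcription factors lie at the right, at a median of 98.2, and Kupffer and stellate markers are all orange.

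The same genes were compared with WT to see how far these levels depend on Ppara. Folds were compared in the authors' consensus intervals that were called in all 8 libraries of a mark, with limma on centred log2 folds and an adjusted p under 0.05 (Benjamini-Hochberg). In H3K27ac 1173 of 18281 intervals (6.42%) differed between Ppara KO and WT, 517 higher (2.83%) and 656 lower (3.59%) in Ppara KO. Quantile normalization turned this split to 648 higher and 502 lower. With H3K4me1 limma called 0 of 19526 intervals (0%), and 1648 had an unadjusted p under 0.05. An interval had to be called in all 8 libraries to be tested. Acetylation that was lost altogether in Ppara KO, or that had no peak in WT, is therefore not counted.

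PPARA targets were the list with the most calls. Of 28 targets 23 could be tested, 7 of them fell and 0 rose, against 3.59% of all intervals lower and 2.83% higher. Their median log2 difference was −0.52, against −0.03 over all intervals, and 19 of the 23 were below 0. In H3K4me1 22 targets could be tested and limma called none, with a median of −0.12 against −0.01 over all intervals. The list was drawn up with earlier results of these data known, so its direction is not independent evidence.

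Acaa1b, a peroxisomal thiolase, had H3K27ac folds of 7.54 and 8.32 in the Ppara KO livers and 22.0 and 33.8 in WT, without overlap (log2 difference −1.77, SE 0.26, limma adjusted p = 0.00641). Mfsd2a, a lipid transporter induced by fasting, had 8.42 and 3.52 against 24.4 and 26.4 in its tested interval, which is not its strongest region (−2.21, SE 0.50, limma adjusted p = 0.0242). Slc25a20, whose promoter is printed above, had 7.14 and 6.29 against 14.6 and 21.7 (−1.40, SE 0.28, limma adjusted p = 0.015). In all 3 genes the lowest WT liver lay above the highest Ppara KO liver.

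Hsd17b4, the bifunctional enzyme of peroxisomal oxidation, had 10.8 and 14.0 against 25.5 and 28.8 (−1.13, limma adjusted p = 0.0118). The hydroxylases Cyp4a10 (6.17 and 5.50 against 12.8 and 19.0) and Cyp4a32 (10.0 and 6.69 against 18.5 and 19.4) are near-identical in sequence to neighbours, so their reads may not be assigned with certainty. Cyp4a10 fell by 1.41 on the log2 scale, and Cyp4a32 fell by 1.20 on the log2 scale (limma adjusted p = 0.0135 and 0.0199). Acaa1a, the other peroxisomal thiolase, had 13.3 and 14.99 against 20.6 and 29.96 (−0.80, limma adjusted p = 0.0367). It passed in 5 of 13 alternatives (limma adjusted p from 0.0306 to 0.196), and not without centring (0.0839) or with quantile normalization (0.0641).

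The other 16 tested targets did not pass. Fabp1 had 8.62 and 11.7 against 15.7 and 17.4 (−0.71, limma adjusted p = 0.0799), and Acadvl, which oxidises very long chains, 7.91 and 7.18 against 11.5 and 14.4 (−0.75, limma adjusted p = 0.0664). Cpt1a had 19.8 and 21.0 against 23.0 and 24.7, and Plin2 19.4 and 21.2 against 19.8 and 14.8. Fgf21, a fasting hormone of the liver, had 8.50 and 11.4 against 5.89 and 6.29 (0.71, limma adjusted p = 0.114). Acadm, the medium-chain dehydrogenase, likewise had higher values in Ppara KO, 10.7 and 10.5 against 6.58 and 6.98.

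**Figure D5:**
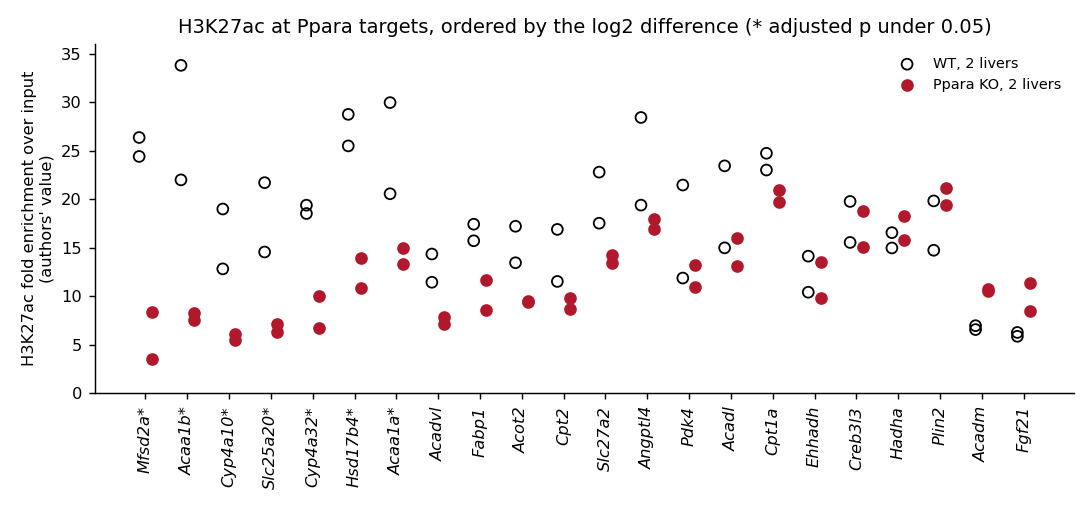
H3K27ac fold enrichment over input, the authors' value (vertical axis, linear), at 22 of the 23 tested PPARA targets (horizontal axis, ordered by the log2 difference). Open circles are the 2 WT livers and filled circles the 2 Ppara KO livers, and an asterisk marks an adjusted p under 0.05. The 7 marked genes lie at the left with WT above Ppara KO in both livers, and Fgf21 and Acadm lie at the right with Ppara KO above WT.

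Some genes outside this list were called too, where 3.59% of all intervals were lower and 2.83% higher. Hepatocyte transcription factors had 2 of 14 lower, Cebpa with 17.6 and 25.5 against 33.8 and 41.5 (−0.81, limma adjusted p = 0.0283) and Nr5a2 with 16.3 and 22.0 against 30.1 and 31.7 (−0.69, limma adjusted p = 0.0397), and neither passed without centring or with quantile normalization, which also moved the list's median from −0.20 to 0.04. Fasn, fatty acid synthase, had 7.75 and 13.7 against 20.3 and 32.2 (−1.30, limma adjusted p = 0.0248), and Clock 10.5 and 14.0 against 22.0 and 35.96 (−1.20, limma adjusted p = 0.0123). No tested gene of the ketone body, gluconeogenesis, secreted protein, bile acid, urea cycle or cell type lists passed in limma, and the medians of these lists lay between −0.02 and 0.32. No cholangiocyte or lymphocyte marker could be tested.

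No ketone body gene passed. Bdh1 had 12.4 and 16.5 in Ppara KO against 16.0 and 13.3 (−0.02, limma adjusted p = 0.976), with overlap. Acat1, a thiolase of ketone metabolism, had 13.4 and 17.4 against 21.0 and 26.9 without overlap and did not pass (−0.63, limma adjusted p = 0.0746). Cell type markers had medians above that of all intervals (−0.03): 0.24 for hepatocyte markers (4 of 5 above 0), 0.32 for endothelial markers (6 of 8), 0.22 for Kupffer cell markers (3 of 3) and 0.01 for stellate cell markers (1 of 2). None of them passed, and their part in the differences was not tested.

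These calls rested on few livers. Of the 12 calls in the gene lists, which include the 7 targets, Cebpa, Nr5a2, Fasn and Clock, none passed with the shortest peak width as a covariate or without WT replicate 2, where 17 and 79 intervals were called in all. Without Ppara KO replicate 1, 3 of the 12 passed (70 intervals in all), and without Ppara KO replicate 2, 4 did (142 intervals). The median of the PPARA targets stayed below 0 under each of the 13 alternatives, between −0.68 and −0.36. Leaving out a Cpt2 KO or DKO library, or adding the replicate block, could not change it from −0.52.

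By class, the called intervals with H3K27ac only were lower more often than higher. Among 6907 such intervals 98 were higher and 271 lower in Ppara KO, and among 11335 with both marks 419 were higher and 382 lower. In either direction 5.34% of H3K27ac-only and 7.07% of both-mark intervals were called. Over all intervals 6.42% were called, 2.83% higher and 3.59% lower. The share of H3K27ac-only intervals called lower was near that 3.59%, while the share called higher was below that 2.83%. The medians of the 2 classes were −0.09 and 0.01 on the log2 scale. With quantile normalization the counts were 115 and 211, and 533 and 288. Without WT replicate 2 the lower calls no longer outnumbered the higher ones in the H3K27ac-only class. The medians were then −0.04 (H3K27ac only) and −0.01 (both marks). The difference between classes was not tested.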

How the data were processed

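Chromatin of flash-frozen livers was immunoprecipitated and sequenced per the labels' protocols. Reads were processed with BWA and MACS2 2.1.0 on mm10, per the submitters' processing notes. Each deposited peak list gives, per library, the peak, its fold enrichment over the input (a ratio) and its −log10 p and −log10 q. One Ppara KO list carries another build tag in its peak names, and its 44454 peaks were identical to those of the authors' mm10 track. The deposited consensus tracks give intervals only.

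Peaks were joined in Python 3.11.15 where they overlapped by at least 1 base. Distances run from a region's middle to the nearest end of 21887 protein-coding gene bodies (RefSeq, GRCm38.p6), and near means within 1000 bases. The strand was used only for starts and promoters. For each consensus interval called in all 8 libraries of a mark, log2 of the strongest fold, with no pseudocount and centred on the library median, was fitted over the 4 genotypes with limma 3.58.1 (R 4.3.3). The fit was checked on simulated data. Library measures were compared by exact permutation of 2 against 6 libraries.

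Named genes were the 25 strongest in H3K27ac and the members of 10 functional lists and 7 marker lists, up to 4 per list by strength plus those called or without a region. The members and lists were chosen with earlier results of these data known. Genes named outside this rule were chosen after their values were seen, and a few members of the lists, counted in the totals, are not reported here. H3K4me1 and H3K27ac libraries of other genotypes served as comparison, and input libraries were not used. P-values measure the spread between 2 livers a group. Alternatives were another overlap, a minimum −log10 q, another distance, other scalings, the replicate number as a block, the shortest peak width as a covariate, and each library left out.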

Additional observations from a re-analysis of the deposited data

How the results depend on the processing

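Peak lists carry no reads, so depth could not be modelled, and peaks missed in shallower libraries cannot be told from lost ones. With overlap of at least 50% of the shorter peak, 55.0% of H3K27ac regions had both marks, 13.4% of these were near a gene end, and regions with 1 mark had median widths of 728.5 (H3K27ac) and 719 bases (H3K4me1). With −log10 q of at least 10 the first values were 54.1% and 15.7%, and the median widths 1515 and 800 bases for H3K27ac and 1301 and 823 for H3K4me1, both marks first. Within 5000 bases of a gene end lay 57.1% of H3K27ac-only, 37.6% of both-mark H3K27ac and 31.8% of H3K4me1-only regions. From 1 liver alone the values were 61189 to 69790 H3K4me1 regions, 62.5% to 63.9% of H3K27ac and 45.8% to 54.5% of H3K4me1 regions with both marks, 33.9% to 37.5% and 14.5% to 14.8% near an end (H3K27ac only, both marks), and median widths of 703 to 727 and 408 to 424 bases for H3K27ac and 646 to 660 and 353 to 360 for H3K4me1. Of the 25 strongest genes 6 remained by −log10 q, 0 by covered bases and 15 to 15 with a liver left out.

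With the shortest peak width as a covariate limma called 17 H3K27ac intervals instead of 1173, and with a library left out 70 (without Ppara KO replicate 1) to 1675. For H3K4me1 it called 0 to 3 with a library left out, 3 without Cpt2 KO replicate 1 or replicate 2. Deviations of same-numbered livers correlated from −0.06 to 0.17 across genotypes in H3K27ac and from −0.49 to 0.10 in H3K4me1. The −0.49 was between Cpt2 KO and Ppara KO, so there the opposite-numbered livers deviated alike. In H3K4me1 Cpt2 KO replicate 1 and Ppara KO replicate 2 covered 41.4 and 42.7 Mb, the other livers of these genotypes 53.5 and 53.3 Mb. The replicate block gave 1362 H3K27ac and 0 H3K4me1 calls. The cause of these differences and of the changes in calls was not tested. The 12 calls in the gene lists kept their direction in all 155 refits. Leaving out a Cpt2 KO or DKO library, or adding the replicate block, cannot change a log2 difference between Ppara KO and WT. Those refits are therefore no check of direction. Without centring 8 of the 12 passed in limma, with quantile normalization 8, and with the shortest peak width as a covariate 0.

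Library measures set against the other genotypes turned sign in 5 cases: with 1 library left out, H3K4me1 near an end (−1.97 to 0.48 points), H3K4me1 overlap (−2.02 to 6.76 points) and H3K4me1 width (−0.5 to 15.5 bases), each with a Ppara KO library left out, and otherwise H3K27ac width 17.4 bases with −log10 q of at least 10, and H3K27ac near an end 0.365 points within 5000 bases.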
